A study of Mus musculus with 12 samples.

Results

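Glomeruli of 6 mice were compared at Day 5 after adriamycin (ADR), 3 of the substrain BALB/cByJcl (ByJcl) and 3 of the substrain BALB/cAJcl (AJcl, written BALB/cAjcl in the labels). All 6 libraries carrying these labels were taken, out of 12 in the series, and every measured gene was considered. The mice were males of 8 weeks, inbred, with no transgene, and each had received a single intravenous dose of 10 mg/kg of ADR by the retro-orbital route. Nothing but the substrain is recorded as differing between the groups, and all libraries carry the same batch number. The other 6 libraries, 3 per substrain, came from untreated mice of the same age and sex; they served as the background against which each Day 5 difference was set. Saline-injected mice are mentioned in the protocol, but no library of the series is labelled as one. Glomeruli were caught with magnetic beads that lodge in their capillaries, which enriches them but does not purify them, and the study set aside 1 AJcl library, A-ADR1, for low glomerular purity. The calls and list medians are therefore given with all 6 libraries and again without A-ADR1.

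ADR (doxorubicin) is an anthracycline that poisons topoisomerase and damages DNA. In BALB/c mice it injures podocytes, the cells whose interlocking foot processes cover the outer face of the glomerular capillary, and albuminuria follows. Podocytes hold on to the glomerular basement membrane, a sheet of type IV collagen and laminin, through integrins coupled to an actin cytoskeleton; mesangial and endothelial cells make up the rest of the tuft. Comparing the substrains early after the drug asks which of these compartments differ between them in RNA at that time.

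The Day 5 libraries held 43835070 to 47513846 counts each, so that 3 counts corresponded to 0.0604 to 0.0689 CPM (counts scaled to the library total). All levels below are CPM after TMM scaling, a log2FC is the log2 fold change of ByJcl relative to AJcl, and a gene is called at a Benjamini-Hochberg adjusted p below 0.05 in edgeR's quasi-likelihood test over 16612 genes. The libraries separated by substrain, but as a graded series and not as tight groups. On the leading principal component, 60.8% of the variance of 2000 genes, the scores were -61.61 in A-ADR1, -33.51 in A-ADR2 and -2.265 in A-ADR3, against 60.82 in B-ADR1, 28.6 in B-ADR2 and 7.967 in B-ADR3. A-ADR3 therefore lay close to B-ADR3 (Spearman correlation of their CPM 0.9917, across genes) and far from A-ADR1 (0.9678).

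Tubule transcripts followed the same axis. For each group the values here and below are in the order of library 1, 2 and 3. The summed level of the 18 proximal tubule markers was 14740, 5520 and 4107 CPM for AJcl and 999.6, 2207 and 4179 CPM for ByJcl. The 15 distal nephron markers summed to 2993, 1743 and 1277 CPM in AJcl, and to 260.9, 802.2 and 614 CPM in ByJcl, without overlap. A-ADR1 thus stood highest, but both other AJcl libraries also carried more distal nephron RNA than any ByJcl library. The 27 podocyte markers were all detected and summed to between 19090 and 29690 CPM in the 6 libraries, beside 29130 to 40900 CPM in the untreated ones. Of the tubule genes, 18 of 18 proximal (median log2FC -1.66) and 15 of 15 distal markers (median -2.35) had a negative log2FC, beside a median of -0.01 over all genes tested, but none was called in edgeR. An unadjusted p below 0.05 was found for 12 and 14 of them, and DESeq2 called 0 and 6. Of all genes tested 9.61% had such a p with ByJcl lower, and DESeq2 called 2.47% lower. Without A-ADR1 the medians were -1.01 and -1.50, with the same signs. In untreated glomeruli they were -0.96 and -1.25. Fits with either tubule list as a covariate are given with the calls and, for the gene lists, together at the end. Since the distal sums did not overlap between the substrains, such a fit cannot fully separate tubule RNA from substrain. The part of tubule RNA in the results below was not tested otherwise.

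**Figure D1:**
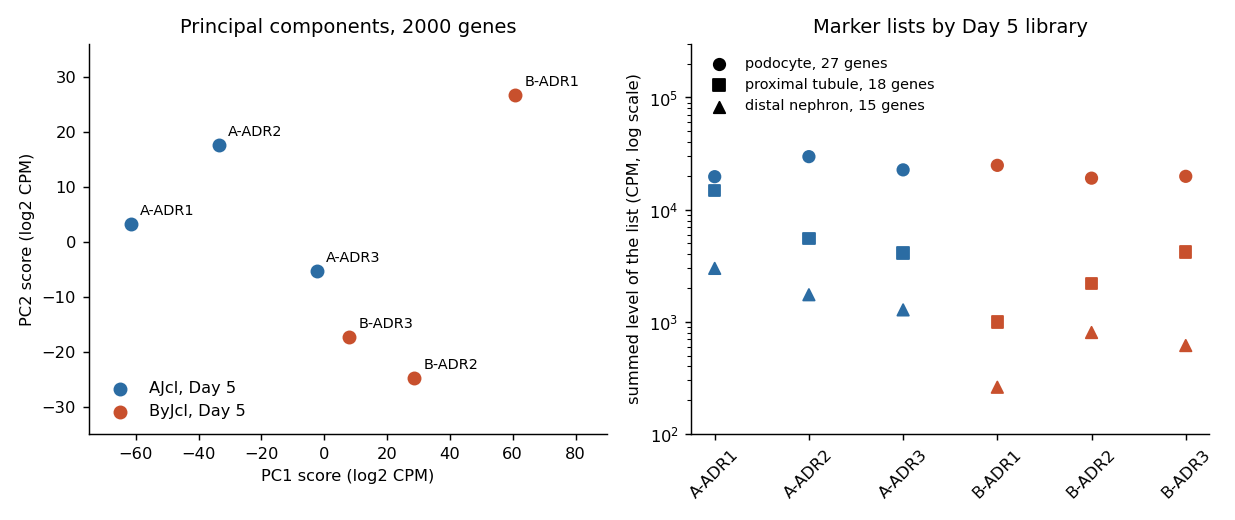
Left, scores of the 6 Day 5 libraries on the leading principal components of log2 CPM over 2000 genes; right, summed level of 3 marker lists in each library (CPM, log scale). AJcl libraries are blue and ByJcl libraries red. A-ADR1 and B-ADR1 stand at opposite ends of the horizontal axis on the left, and the distal nephron sums of AJcl, 1277 to 2993 CPM, lie above those of ByJcl, 260.9 to 802.2 CPM.

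Between the substrains 72 of 16612 genes were called, 0.433% of those tested. Of these, 51 were higher in ByJcl (0.307%) and 21 were lower (0.126%), and 46 differed by more than 2-fold. In each of the 72 genes the 3 ByJcl libraries lay apart from the 3 AJcl libraries; such separation alone was found in 3219 genes, 19.4% of those tested (1653 with ByJcl above, 1566 with AJcl above), so it adds little to a call. Without A-ADR1, 28 of 17002 genes were called (0.165%), 23 higher (0.135%) and 5 lower (0.0294%). Of the 72 genes, 26 were called in both fits and 46 with A-ADR1 only, 30 of these higher and 16 lower in ByJcl, while Lgals1 and Tagln were called only without it. All 72 kept their direction. Among the genes called in both fits were Arl2bp, Cald1, Col5a3, Galk2, Glo1, H2-Q6, Hmga1b, Loxl1, Mcam, Oas1a, Oas1b, Oas1g, Otud3, Pla2g5, Plppr5, Ppp1r3a, Ptgfr, Ptgir, Serpina1b, Tagln2, Tmem215, Tpm4, Ubtd1, Zfp809 and Zfp970. Every other call named below lost its call without A-ADR1, with edgeR adjusted p between 0.0505 (Erdr1) and 0.125 (Mx1). The median absolute log2FC of the 72 genes was 1.25 with all libraries and 1.18 without A-ADR1. The number of calls rested on single libraries: it was 15 without A-ADR2 and 793 without A-ADR3, and A-ADR3 was the AJcl library nearest to ByJcl in 50 of the 72 genes. With the proximal tubule list as a covariate 22 of the 72 stayed called, among them Mc4r, Erdr1, Rsad2 and the genes just named except Cald1, Glo1, Mcam, Plppr5, Ptgfr, Tagln2 and Tpm4. With the distal nephron list 12 did: Arl2bp, Col5a3, Galk2, H2-Q6, Oas1a, Oas1b, Otud3, Ppp1r3a, Ptgir, Ubtd1, Zfp809 and Zfp970. Every other call named below was lost with both covariates or, for Hmga1b, Loxl1, Oas1g, Serpina1b, Tmem215, Pla2g5, Mc4r, Erdr1 and Rsad2, with the distal one. The differences themselves changed less, with a median absolute log2FC of 1.08 and 1.03 under the proximal and distal covariate. No log2FC moved by over 1.5 times with the proximal list, and 4 did with the distal list: Fbln7 (-1.32 to -0.84), Mxra7 (0.77 to 0.48), Pank1 (-1.01 to -0.64) and Rgs11 (-1.86 to -1.04). The number of calls rested on the tool as well, since DESeq2's Wald test called 911 of 15965 genes (5.71%), the 72 among them, 516 higher (3.23%) and 395 lower (2.47%), and 535 without A-ADR1 (3.49%).

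**Figure D2:**
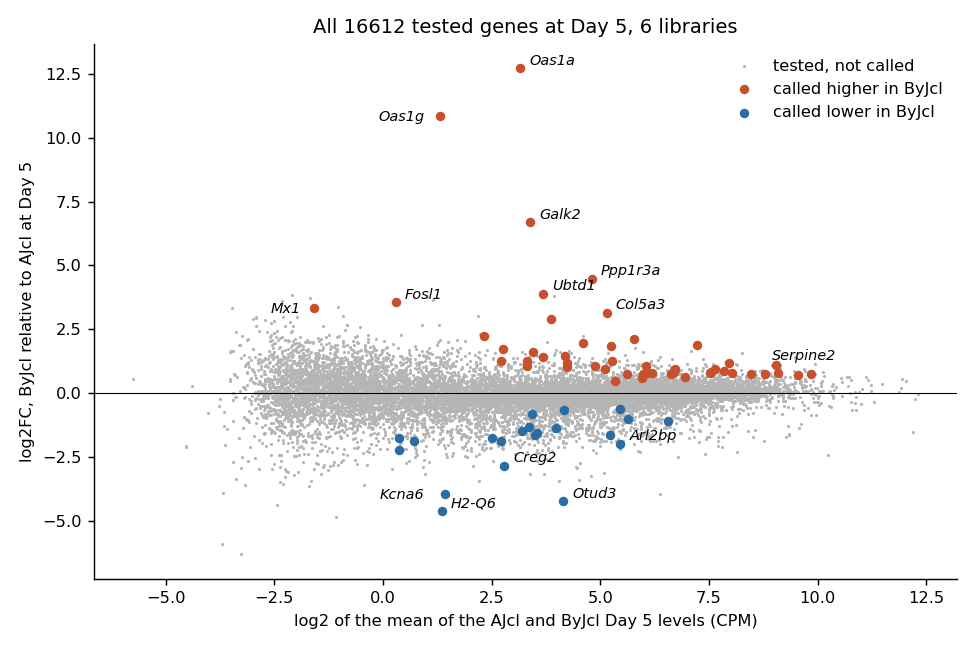
Log2FC of ByJcl relative to AJcl at Day 5 against the log2 of the mean level (CPM) for the 16612 tested genes over 6 libraries. Grey points were not called, red points (51) were called higher and blue points (21) lower in ByJcl; the Oas1a and Oas1g values rest on AJcl libraries without a single count.

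The calls were divided by whether the gene was also called without ADR; a gene not called there may still differ. In untreated glomeruli the same fit called 19 genes (0.114% of those tested), and 15 of the 72 Day 5 calls were among them, each with the same sign at both times. The remaining 57, 40 higher and 17 lower in ByJcl, had a median absolute log2FC of 1.07 at Day 5 and of 0.36 untreated, and 52 of them had the same sign. Whether the substrain difference itself had changed with ADR was asked by the interaction term. No gene passed it after adjustment and 801 had an unadjusted p below 0.05 (the smallest adjusted p among the 72 was 0.748, edgeR), and at an unadjusted p below 0.05 it singled out 40 of the 57 and 1 of the 15. Since the 57 were picked for a difference at Day 5, their larger Day 5 values are a description.

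**Figure D3:**
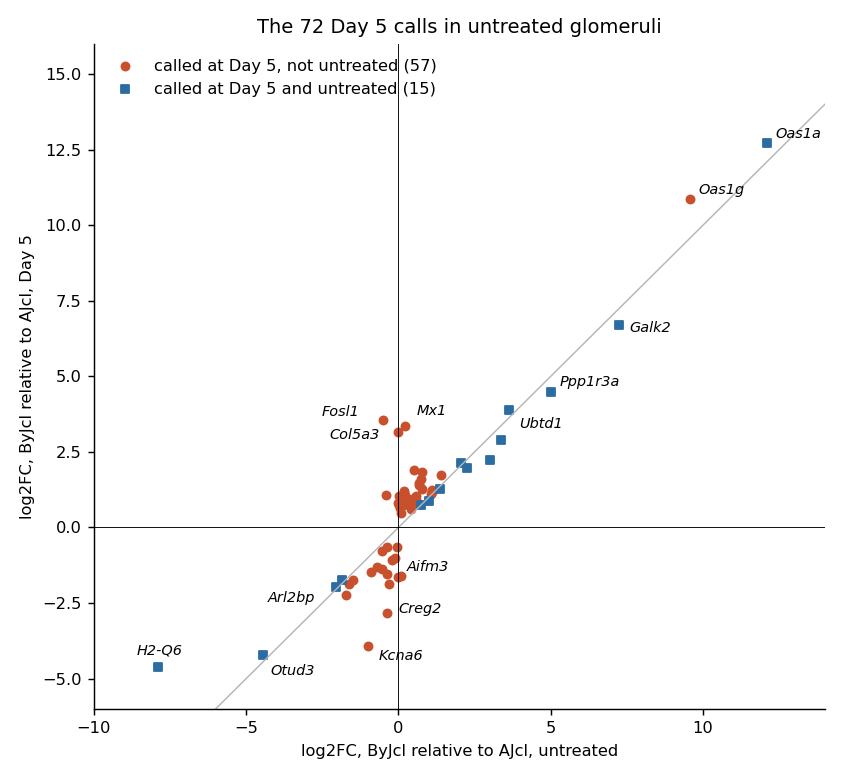
Log2FC of the 72 Day 5 calls at Day 5 (vertical) and in untreated glomeruli (horizontal), ByJcl relative to AJcl; the grey line marks equal values. The 15 genes called at both times lie near the line except H2-Q6 (-4.61 against -7.89), while Col5a3, Fosl1 and Mx1 lie above it, with untreated values between -0.50 and 0.22. The untreated H2-Q6 value rests on 2, 0 and 4 counts in ByJcl.

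Genes that also differed without ADR led the list. Ubtd1, a ubiquitin-domain gene, was at 1.54, 1.46 and 1.83 CPM in the AJcl libraries and at 24.4, 22.7 and 24.9 CPM in the ByJcl libraries. Its log2FC was 3.89 (SE 0.15, edgeR adjusted p = 1.58e-07; 3.86 without A-ADR1), and no other gene had a smaller p. Galk2, which encodes a kinase of galactose and N-acetylgalactosamine, was nearly silent in AJcl (0.343, 0.133 and 0.121 CPM) and was at 22.0, 18.8 and 21.5 CPM in ByJcl (log2FC 6.69, SE 0.60, adjusted p = 0.000357). Ppp1r3a, a subunit that brings protein phosphatase 1 to glycogen, went from 2.15, 2.25 and 2.74 CPM in AJcl to 67.5, 43.1 and 49.9 CPM in ByJcl (log2FC 4.49, adjusted p = 3.43e-05). In the other direction Otud3, a deubiquitinase gene, was at 29.3, 37.95 and 33.4 CPM in AJcl and at 1.23, 1.54 and 2.61 CPM in ByJcl (log2FC -4.22, adjusted p = 2.65e-05). Arl2bp, whose product binds the small GTPase ARL2, was at 71.4, 66.3 and 73.0 CPM against 16.03, 19.3 and 17.9 CPM (log2FC -1.98, adjusted p = 0.000112). For these 5 genes the untreated log2FC was 3.62, 7.23, 5.00, -4.45 and -2.05, in the order given, and the interaction p was 0.183 or larger.

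Some calls were neighbours on the genome. Of the 72 calls, 70 were matched to a gene of GRCm39, on 19 chromosomes, and 9 of them lay within 1 Mb of another call. Otud3 (chr4:138620953-138641294) had as a neighbour Pla2g5 (chr4:138526553-138590916), a secreted phospholipase A2 gene that moved the opposite way, from 4.55, 2.63 and 2.19 CPM in AJcl to 11.3, 9.47 and 10.5 CPM in ByJcl (log2FC 1.74, edgeR adjusted p = 0.027, and 0.00831 without A-ADR1). Glo1 (chr17:30803910-30845845), the glyoxalase that clears methylglyoxal, was at 85.8, 76.3 and 57.1 CPM in AJcl and 152, 122 and 129 CPM in ByJcl, next to Btbd9 (chr17:30434498-30795517). Btbd9 had a log2FC of 0.61, below the 0.88 of Glo1. Pdlim7 and Dbn1, both actin-binding, and the Oas1 genes described below made up the rest.

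Some of the remaining genes called at both times belong to families of near-copies, and their counts are uncertain because reads can be split between copies in a way that the sources used here do not describe. Zfp970, a zinc finger gene of a large family, was at 21.1, 21.7 and 18.04 CPM in AJcl and 89.6, 107 and 69.0 CPM in ByJcl (log2FC 2.13, edgeR adjusted p = 0.00241). Serpina1b, 1 of several alpha-1-antitrypsin genes, had a log2FC of 1.96, and its copies Serpina1a and Serpina1d were not called, with values of 1.15 and 1.68. Amd2, a copy of the adenosylmethionine decarboxylase gene Amd1, had a log2FC of -1.74, while Amd1 itself stood at -0.15. Tmem215 (2.90), Klhl21 (0.75) and Ccdc158 (1.28) complete the genes called at both times together with Glo1, H2-Q6, Oas1a and Oas1b. Man2a1, a Golgi mannosidase, Ctps2, a CTP synthase, and Wdr66 had nearly equal log2FC at Day 5 (1.10, 1.18 and 1.24) and untreated (1.05, 1.10 and 1.09), but were called only at Day 5. Rpa1, the large subunit of the single-strand DNA binding complex, and Msh3, a mismatch repair gene, were called in opposite directions (0.84 and -0.79).

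Of the interferon-stimulated genes 5 were called higher in ByJcl. All 24 members of the list had a positive log2FC (median 0.77, beside -0.01 over all genes), 21 had an unadjusted p below 0.05, 14 had separate libraries and the calls were Oas1a, Oas1b, Oas1g, Rsad2 and Mx1, while DESeq2 called 11. Over all genes tested, 8.74% had such a p with ByJcl higher and 9.95% had every ByJcl library above AJcl. Called higher were 0.307% in edgeR and 3.23% in DESeq2. The summed level of the list was 537.7, 530.8 and 806.5 CPM in AJcl and 1297, 999.2 and 944.2 CPM in ByJcl. Without A-ADR1 the median was 0.71 with 23 of 24 positive, and only the Oas1 genes were called. The untreated median was 0.59, so a difference of similar size was present before ADR.

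The Oas1 genes encode synthetases of the 2′-5′ oligoadenylates that switch on RNase L. Oas1a (chr5:121031070-121046449 of GRCm39, minus strand) had no count in any AJcl library, treated or not, and was at 28.3, 12.6 and 12.7 CPM in the ByJcl libraries at Day 5. The ByJcl mean of 17.9 CPM was at least 269-fold higher than the level of 3 counts in an AJcl library (0.0663 CPM; counting error only). Oas1g (chr5:121014205-121025676, minus strand) was likewise at 0 in AJcl and at 8.69, 3.33 and 2.80 CPM in ByJcl, at least 74.5-fold higher by the same measure. Between 79.27 and 82.85% of the counts from 1 to 49 in a Day 5 library were even, so read pairs may have been counted as 2; with 6 counts as the floor the bounds are 135-fold for Oas1a and 37.3-fold for Oas1g. Oas1b (chr5:120950700-120962228, plus strand) was detected in both, at 1.82, 1.35 and 2.05 CPM against 9.09, 7.97 and 7.78 CPM (log2FC 2.25, SE 0.26, edgeR adjusted p = 0.00262). The adjusted p was 0.00117 for Oas1a and 0.0174 for Oas1g, and the 3 genes stayed called without A-ADR1 (0.00314, 0.0436 and 0.0122 for Oas1a, Oas1g and Oas1b). B-ADR1 had the highest level of all 3.

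Oas1a and Oas1g are near-copies, and reads may be shared between them. Their promoters are shown because both genes share the same absence in AJcl, and that of Rsad2, the antiviral enzyme viperin, because it was expressed in both substrains. The windows are the 250 bases before the RefSeq transcription start on GRCm38.p6, 5′ to 3′ on the strand of the gene (minus for all 3), from the reference genome and not from these mice. Oas1a is at chr5:120907526-120907775, Oas1g at chr5:120887614-120887863 and Rsad2 at chr12:26456453-26456702. Capitals mark matches to GAAANNGAAA on either strand, the core of the interferon-stimulated response element (ISRE), a sequence bound by interferon regulatory factors.
Oas1a: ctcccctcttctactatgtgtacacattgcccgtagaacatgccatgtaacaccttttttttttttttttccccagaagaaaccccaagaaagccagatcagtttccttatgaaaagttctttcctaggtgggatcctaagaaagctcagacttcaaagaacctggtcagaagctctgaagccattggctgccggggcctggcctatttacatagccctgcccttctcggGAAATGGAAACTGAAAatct
Oas1g: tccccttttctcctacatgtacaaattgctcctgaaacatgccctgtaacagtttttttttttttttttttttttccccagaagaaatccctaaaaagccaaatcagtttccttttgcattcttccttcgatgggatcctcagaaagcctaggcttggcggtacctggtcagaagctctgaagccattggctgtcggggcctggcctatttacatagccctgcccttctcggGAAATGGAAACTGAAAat
Rsad2: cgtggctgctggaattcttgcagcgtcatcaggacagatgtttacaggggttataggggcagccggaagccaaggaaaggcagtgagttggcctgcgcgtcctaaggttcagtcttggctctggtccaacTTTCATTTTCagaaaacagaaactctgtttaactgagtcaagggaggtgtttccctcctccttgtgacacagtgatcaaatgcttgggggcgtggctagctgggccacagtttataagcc
The Oas1a and Oas1g windows were identical in 212 of 256 aligned columns (82.8%), and each carried a pair of overlapping matches next to the start, ending 10 and 4 bases before it in Oas1a and 8 and 2 bases before it in Oas1g. In Rsad2 the match is on the other strand, 110 bases before the start. Of the 16 genes of the interferon list with a window, 8 (50%) held a match, against 3.23% of all tested genes with a window and 3.46% of all genes in the table. The motif was chosen after the result was seen, and a match is not evidence of a bound factor.

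Rsad2 was at 22.9, 20.2 and 27.2 CPM in AJcl and 47.7, 39.9 and 48.5 CPM in ByJcl (log2FC 0.95, SE 0.15, edgeR adjusted p = 0.0249, and 0.0716 without A-ADR1). Mx1, a GTPase that restricts influenza viruses, was near the floor in AJcl (0.0429, 0.0884 and 0.0403 CPM) and low in ByJcl (0.940, 0.551 and 0.321 CPM), with a log2FC of 3.35 (SE 0.63, adjusted p = 0.0488) that was not called without A-ADR1 (0.125). Its untreated log2FC was 0.22. Among the members that were not called, Ifit2 had the smallest p, with 48.3, 60.4 and 64.4 CPM against 82.8, 109.7 and 89.1 CPM (log2FC 0.70, adjusted p = 0.0525).

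Genes of antigen presentation mostly had positive values without a call. Of 16 tested members, 15 had a positive log2FC and 14 of these an unadjusted p below 0.05 (median 0.93; 0.91 without A-ADR1; 0.37 untreated), yet none was called higher in edgeR, while DESeq2 called 7 (3.23% of all genes were called higher by it). H2-K1, a classical class I heavy chain, was at 326, 219.6 and 526 CPM in AJcl and 1063, 684 and 562 CPM in ByJcl (log2FC 1.11, edgeR adjusted p = 0.103). Levels varied widely within each substrain, highest in B-ADR1 and lowest in A-ADR2. The exception was H2-Q6 (chr17:35643777-35655332), a non-classical class I gene, called lower: 5.55, 4.86 and 4.39 CPM in AJcl against 0.269, 0.161 and 0.171 CPM in ByJcl (log2FC -4.61, SE 0.39, adjusted p = 0.00023). The untreated log2FC was -7.89, and its interaction p of 0.000236 was the smallest of the genes called at both times. The size of the untreated value is uncertain, since the untreated ByJcl libraries held 2, 0 and 4 counts of H2-Q6, beside 12, 7 and 8 at Day 5. H2-Q6 has near-copies in the Q region, and the nearby H2-Q4 had a log2FC of 1.16, so a split of reads between them cannot be told apart from a difference in either.

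**Figure D4:**
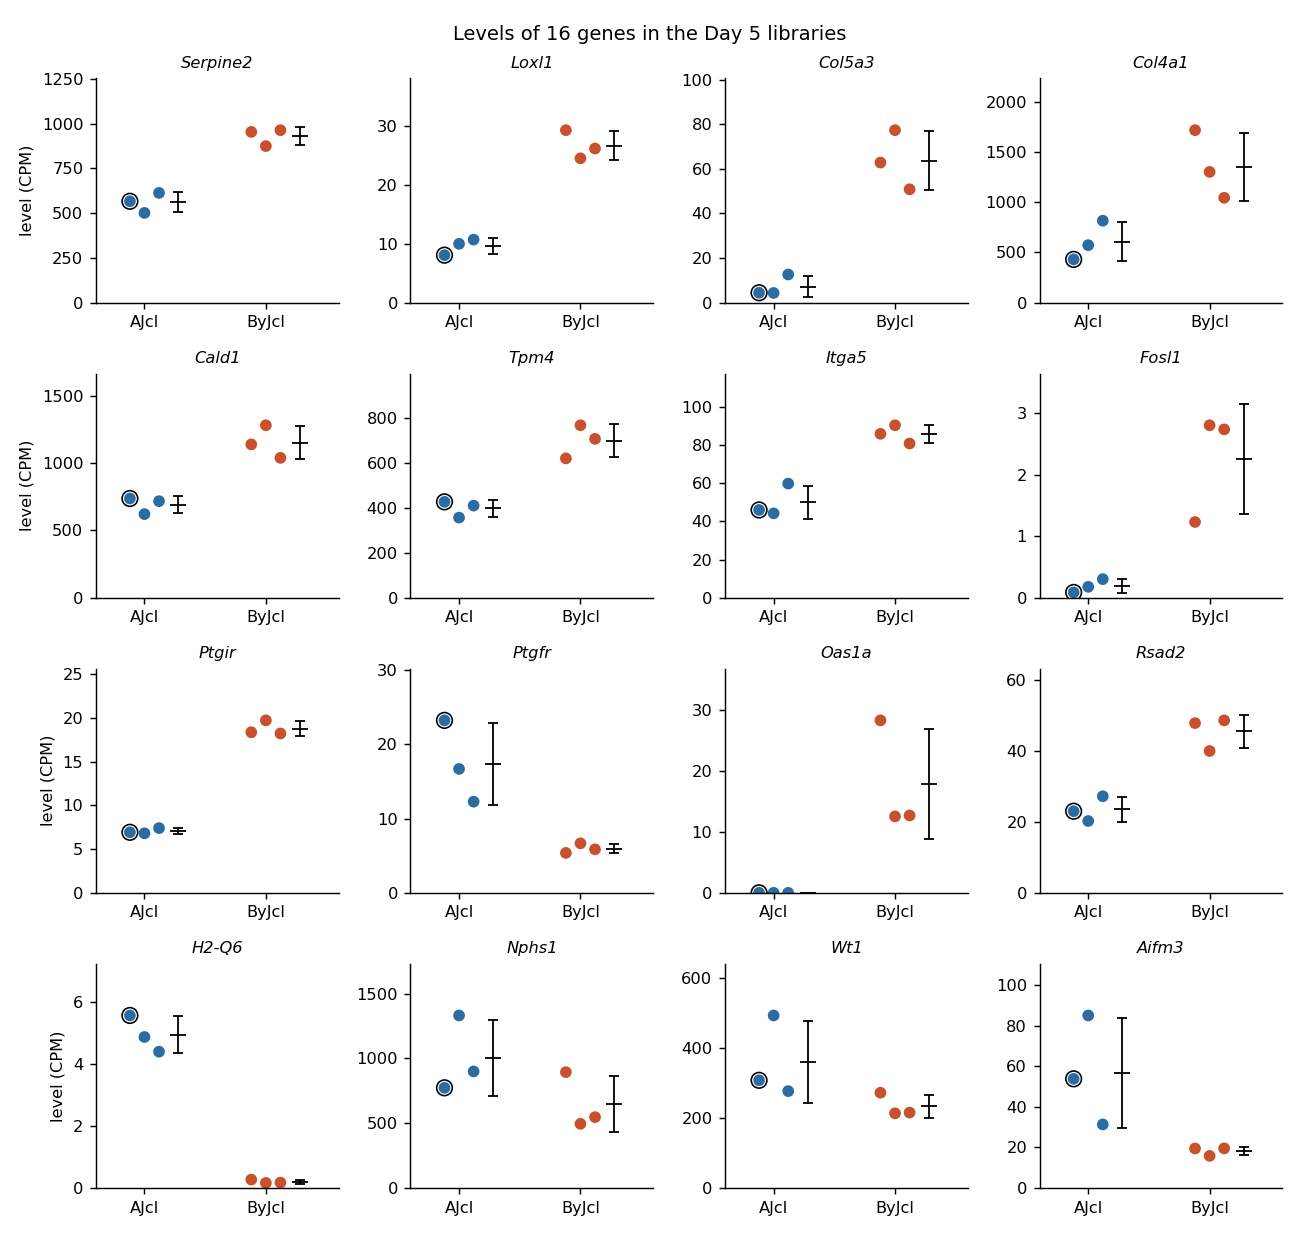
Level (CPM, linear axis from 0) of 16 genes in each Day 5 library, AJcl blue and ByJcl red, with the mean and SD of the 3 libraries in black beside the points; a ring marks A-ADR1. Serpine2, Loxl1, Col5a3 and Ptgir show no overlap between substrains, whereas the ranges of Nphs1 overlap and those of Wt1, 277 to 493 and 214 to 272 CPM, lie just apart without a call.

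Among matrix genes the largest difference was in a minor collagen. Col5a3 (chr9:20681337-20726418), a chain of type V collagen, was at 4.42, 4.33 and 12.6 CPM in AJcl and 62.8, 77.3 and 50.8 CPM in ByJcl. Its log2FC was 3.16 (SE 0.38, edgeR adjusted p = 0.00311; 2.90 and 0.0141 without A-ADR1), its untreated value was -0.01, and its unadjusted interaction p of 5.25e-05 was the smallest of the 72 calls. The other type V chains did not follow, with log2FC of 0.20 for Col5a1 and 0.04 for Col5a2 and overlapping libraries. Loxl1 (chr9:58195014-58220495), a lysyl oxidase that cross-links elastin, was at 8.06, 9.99 and 10.7 CPM against 29.3, 24.5 and 26.2 CPM. Its log2FC was 1.48 (SE 0.17, edgeR adjusted p = 0.00241, and 0.0105 without A-ADR1). Unlike Col5a3 it also had a positive untreated log2FC, 0.67, without a call in edgeR. Loxl1 was the only one of 23 listed interstitial matrix genes called in edgeR, beside 0.307% of all genes called higher. Col5a3 is not in that list. DESeq2 called 4 of the list higher and 1 lower, beside 3.23% and 2.47% of all genes. Eln and Loxl2 had 0.69 and 0.88 (edgeR adjusted p = 0.0718 and 0.0833). Of the list 20 genes were positive, with a median of 0.32 that was 0.13 without A-ADR1 and 0.26 untreated.

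Serpine2, a protease inhibitor made by mesangial cells, was at 566, 501 and 613 CPM against 954, 874 and 963 CPM (log2FC 0.73, adjusted p = 0.028, and 0.075 without A-ADR1). Among proteases of the matrix, Plat (tissue plasminogen activator) had a log2FC of -0.04 and Plau (urokinase) of 0.46, both with overlapping libraries. Over the matrix turnover list 14 of 16 genes were positive (median 0.63, 0.66 without A-ADR1 and 0.20 untreated). Of these 10 had an unadjusted p below 0.05 and 6 were called by DESeq2, beside 8.74% and 3.23% of all genes in this direction. Fbln7, a fibulin, was called lower (20.01, 13.3 and 10.5 CPM against 6.47, 4.87 and 6.22 CPM), and Mxra7, a matrix remodelling associated gene, higher (log2FC 0.77).

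Basement membrane genes were less clearly shifted. The embryonic-type chains Col4a1 and Col4a2, transcribed from a shared promoter, were higher in each ByJcl library than in any AJcl library, yet missed the threshold in edgeR. Col4a1 was at 431, 573 and 817 CPM against 1719, 1303 and 1045 CPM (log2FC 1.16, SE 0.25, edgeR adjusted p = 0.0661), and Col4a2 at 261, 336 and 568 CPM against 1380, 989 and 768 CPM (1.43, SE 0.29, 0.0554). Without A-ADR1 the adjusted p was 0.143 and 0.125. DESeq2 called both, with adjusted p of 0.000814 and 0.000258, and over 20 other settings they were called in 3 and 5. The chains of the mature membrane, made by podocytes, had overlapping libraries, with log2FC of 0.10 for Col4a3, 0.11 for Col4a4 and 0.34 for Col4a5, and of -0.18, -0.18 and 0.16 without A-ADR1. Of 22 genes 19 were positive with A-ADR1 (median 0.32) and 13 without it (median 0.15), beside an untreated median of 0.27. In edgeR none was called and 4 had an unadjusted p below 0.05, and DESeq2 called 4 higher. The shares over all genes in this direction were 0.307% called in edgeR, 8.74% with such a p and 3.23% called by DESeq2.

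Of the cytoskeletal genes 4 were called higher in ByJcl. All 19 tested genes of the actin and tropomyosin list had a positive log2FC (median 0.64; 0.68 without A-ADR1), 15 with an unadjusted p below 0.05 and 14 with separate libraries, while the untreated median was 0.02. The shares over all genes were 8.74% and 9.95% in this direction. DESeq2 called 12 of the list, beside 3.23% of all genes called higher. In edgeR, where 0.307% of all genes were called higher, the calls were Tpm4, Cald1, Tagln2 and Pdlim7. Tpm4, a short tropomyosin of stress fibres, was at 426, 356 and 409.5 CPM against 619, 767 and 706 CPM (log2FC 0.81, SE 0.12, edgeR adjusted p = 0.0176), and untreated it was at -0.00. Cald1 (caldesmon) was at 736, 620.4 and 717 CPM against 1138, 1280 and 1038 CPM (0.74, SE 0.12, 0.0252), and Tagln2 (transgelin-2) at 351, 291 and 360.2 CPM against 539.6, 564 and 568 CPM (0.74, SE 0.11, 0.0174). These 3 stayed called without A-ADR1, and Pdlim7, an adaptor on actin filaments, did not (0.75, adjusted p = 0.028 and 0.0739). Tagln, the smooth muscle relative of Tagln2, was called only without A-ADR1, the AJcl library in which it was highest (209, 129 and 154 CPM against 299.9, 354 and 287 CPM). Actb and Actg1 were each higher in every ByJcl library (0.64 and 0.74) without a call, whereas smooth muscle actin, Acta2, overlapped (0.11). With either tubule list as a covariate none of the 4 was called, although their log2FC stayed between 0.70 and 0.92.

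Adhesion genes showed the same direction with smaller values. Of 31 integrin and focal adhesion genes 25 were positive (median 0.38, 0.31 without A-ADR1 and 0.13 untreated). Separate libraries, all with ByJcl above, were found for 17, beside 9.95% of all genes. DESeq2 called 11 and edgeR 2, beside 3.23% and 0.307% of all genes called higher. Itga5, the fibronectin receptor subunit, was at 46.0, 44.2 and 59.8 CPM against 85.9, 90.4 and 80.8 CPM (log2FC 0.78, SE 0.13, edgeR adjusted p = 0.027), and Zyx (zyxin), which senses tension at focal adhesions, at 93.6, 84.3 and 109.7 CPM against 145, 154 and 154 CPM (0.66, SE 0.11, 0.0277). Both lost the call without A-ADR1 (0.0823 and 0.0822). Itgb1, the common beta chain, and Actn1, an actin crosslinker, had log2FC of 0.63 and 1.09 without a call. Outside the lists, Fblim1 (1.06), Dbn1 (1.06), Rhoc (0.82), Lmna (0.77) and Vat1 (0.96) were called higher, which encode a filamin binding protein, drebrin, a small GTPase, lamin A/C and a vesicle protein.

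Fosl1 (chr19:5497575-5505974), a subunit of the transcription factor AP-1, was at 0.0858, 0.177 and 0.302 CPM in AJcl and 1.23, 2.80 and 2.74 CPM in ByJcl (log2FC 3.56, SE 0.60, edgeR adjusted p = 0.0277, and 0.0902 without A-ADR1), with an untreated value of -0.50. The other AP-1 genes Fos, Jun and Junb stood at 0.46, 0.18 and 0.55 without a call, and 13 of 14 immediate early genes were positive (median 0.47). The promoters of Zyx and Fblim1 are shown as cytoskeletal calls with an AP-1 site, with TGACTCA on either strand in capitals. They are RefSeq windows of 250 bases before the start on GRCm38.p6, chr6:42349578-42349827 on the plus strand for Zyx and chr4:141606053-141606302 on the minus strand for Fblim1.
Zyx: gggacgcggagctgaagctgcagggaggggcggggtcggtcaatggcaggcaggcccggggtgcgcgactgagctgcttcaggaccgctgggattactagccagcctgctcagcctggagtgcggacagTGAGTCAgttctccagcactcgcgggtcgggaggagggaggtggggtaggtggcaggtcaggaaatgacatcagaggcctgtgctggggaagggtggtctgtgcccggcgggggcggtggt
Fblim1: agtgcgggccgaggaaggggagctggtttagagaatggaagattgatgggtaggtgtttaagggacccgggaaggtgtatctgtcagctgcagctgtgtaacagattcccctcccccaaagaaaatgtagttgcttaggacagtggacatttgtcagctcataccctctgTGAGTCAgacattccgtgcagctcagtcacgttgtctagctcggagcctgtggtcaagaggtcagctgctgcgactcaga
Of 42 genes called higher with a window 8 (19.0%) held this motif, namely Cald1, Fblim1, Gramd4, Hmga1b, Klhl21, Rsad2, Serpina1b and Zyx, as did 1 of 17 called lower (5.88%), beside 4.31% of tested genes with a window. The motif was searched after Fosl1 had been seen among the calls, and the share is a description. Another motif searched, the CArG box, was absent from the windows of Cald1, Pdlim7, Tagln2 and Tpm4. It was in 1 of 42 genes called higher (2.38%) and 0 of 17 called lower, beside 1.42% of tested genes. In the actin and tropomyosin list 4 of 17 genes with a window held it (23.5%).

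Receptors for prostanoids, lipid mediators that set vascular tone, were called in opposite directions. Ptgir, the prostacyclin receptor, was at 6.93, 6.81 and 7.41 CPM in AJcl and 18.4, 19.7 and 18.2 CPM in ByJcl. With little spread in either substrain its log2FC was 1.41 (SE 0.15, edgeR adjusted p = 0.00142; 1.40 and 0.0105 without A-ADR1), and it was 0.68 untreated. Ptgfr, the prostaglandin F receptor, was at 23.2, 16.7 and 12.3 CPM against 5.37, 6.66 and 5.86 CPM, a log2FC of -1.54 (SE 0.24, adjusted p = 0.019; -1.27 and 0.0433 without A-ADR1). The interaction p was 0.00412 and 0.00383, both unadjusted. Ptgs2, the inducible cyclooxygenase, was not called (1.35, adjusted p = 0.087), and Ptgis, prostacyclin synthase, overlapped (0.02).

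Vascular genes were represented by Mcam and Angpt2. Mcam, a surface marker of mesangial cells and pericytes, was at 147, 154 and 187 CPM against 306, 294 and 302 CPM (log2FC 0.89, SE 0.12, edgeR adjusted p = 0.0107; 0.0474 without A-ADR1). Angpt2, which opposes angiopoietin-1 at the endothelial receptor TIE2, was at 51.2, 54.5 and 54.9 CPM against 77.9, 97.9 and 99.2 CPM (0.77, SE 0.11, 0.0162; 0.059 without A-ADR1). Both groups were tight and well apart. Of 15 endothelial activation genes 13 were positive (median 0.75), F3 and Edn1 with 0.75 and 1.01 among them without a call. General endothelial markers (10 of 16 positive, median 0.16) and mesangial markers (9 of 12, median 0.35, and 0.08 without A-ADR1) had smaller medians, as had the smooth muscle list (7 of 9, median 0.15).

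Podocyte genes lay on the other side of 0. Of 27 tested markers 22 had a negative log2FC (median -0.43), 13 of these with an unadjusted p below 0.05 and 6 with separate libraries. None was called in edgeR, while DESeq2 called 3 lower and 1 higher, beside 2.47% and 3.23% of all genes. Over all genes tested 9.61% had such a p with ByJcl lower and 9.43% had AJcl above ByJcl in every library. Untreated, the median was 0.18. A-ADR2 was the AJcl library with the highest level of most markers, and the median was -0.21 without it. Nphs1 (nephrin) was at 773, 1331 and 899 CPM in AJcl and 894, 495 and 546 CPM in ByJcl (log2FC -0.63, SE 0.26, edgeR adjusted p = 0.223; -0.79 and 0.24 without A-ADR1). Wt1, the transcription factor of podocyte identity, was at 308, 493 and 277 CPM against 272, 214 and 216 CPM (-0.62, SE 0.21, 0.162; -0.71 and 0.201 without A-ADR1). In B-ADR1 nephrin exceeded its level in A-ADR1, and B-ADR2 and B-ADR3 were the lowest libraries. Synpo, Tcf21 and Podxl had log2FC of -0.54, -0.43 and -0.22, all with overlapping libraries.

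The markers nearest to the threshold pointed in both directions. Nes (nestin), an intermediate filament, was at 1082, 1212 and 1665 CPM in AJcl and 2251, 2092 and 1898 CPM in ByJcl (log2FC 0.66, edgeR adjusted p = 0.0923), whereas Ddn (dendrin), a slit diaphragm protein, was at 277, 584 and 237 CPM against 209, 72.9 and 99.5 CPM (-1.53, adjusted p = 0.095). Dach1, Thsd7a and Sema3g had values of -0.73, -1.30 and -0.85 with separate libraries. The median became more negative without A-ADR1 (-0.52, 24 of 27 negative) and with the proximal tubule list as a covariate (-0.65). In bulk glomeruli fewer podocytes and less podocyte RNA per cell cannot be told apart, here or for any other cell type list.

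Of the genes called lower in ByJcl only H2-Q6 belonged to a list. Aifm3, a mitochondrial relative of apoptosis inducing factor, was at 53.8, 85.0 and 31.3 CPM in AJcl and 19.4, 15.8 and 19.5 CPM in ByJcl (log2FC -1.64, edgeR adjusted p = 0.028), and Ube2ql1, a ubiquitin-conjugating enzyme gene, at 16.9, 23.8 and 10.1 CPM against 7.21, 3.86 and 5.43 CPM (-1.62, 0.0319). As in most podocyte markers, A-ADR2 was highest, and neither gene differed untreated (-0.01 and 0.09). Creg2 (-2.84) and Kcna6, a potassium channel (-3.92), varied more widely in AJcl, at 10.5, 22.45 and 3.46 CPM and at 7.21, 6.895 and 1.03 CPM. Plppr5, a membrane protein of the lipid phosphatase family, was even in AJcl (13.4, 13.3 and 13.6 CPM) and lower in ByJcl (5.11, 3.40 and 6.05 CPM), with a log2FC of -1.47 (adjusted p = 0.0123) that held without A-ADR1 (0.0433). It was with Ptgfr, Otud3, Arl2bp and H2-Q6 1 of the 5 lower calls that did.

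Several of the lower genes serve signalling or metabolism. Klhl3, the ubiquitin ligase adaptor that sets WNK kinase levels in the distal tubule, was at 22.0, 25.6 and 21.1 CPM against 7.95, 8.43 and 10.3 CPM (log2FC -1.36, edgeR adjusted p = 0.0422). Trabd2b, a Wnt-cleaving protease, was at 143, 152 and 85.8 CPM against 60.6, 59.9 and 61.2 CPM (-1.07, 0.0249). Pank1, which starts coenzyme A synthesis, and Ppargc1b, a coactivator of mitochondrial genes, had log2FC of -1.01 and -0.64, and Xpnpep2, a brush border peptidase, of -1.74. Mc4r (-1.87), Rgs11 (-1.86), Nap1l5 (-2.23) and Apbb1 (-0.63) complete the list. All lost the call without A-ADR1, with values between -2.06 for Nap1l5 and -0.60 for Apbb1. Untreated, without a call, the log2FC was -1.62 for Mc4r, -1.72 for Nap1l5 and -1.50 for Xpnpep2. It was -0.53 for Klhl3 and -0.38 for Apbb1, and between -0.30 and -0.04 for Rgs11, Trabd2b, Pank1 and Ppargc1b. Distal nephron RNA was higher in all AJcl libraries (above). With it as a covariate Otud3, Arl2bp and H2-Q6 were the lower genes still called, while the log2FC of several others stayed as large, as in Plppr5 (-1.54), Ube2ql1 (-1.91), Mc4r (-2.08), Aifm3 (-1.59) and Xpnpep2 (-1.71), and that of others shrank, as in Klhl3 (-0.99), Nap1l5 (-1.63), Rgs11 (-1.04) and Pank1 (-0.64).

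Immune cell markers were low and leaned toward ByJcl. The 14 myeloid markers summed to 61.9, 50.92 and 97.71 CPM in AJcl and 169.8, 111.8 and 106.6 CPM in ByJcl, with 13 of 14 positive (median log2FC 1.202; 0.94 without A-ADR1; 0.78 untreated). None was called in edgeR. An unadjusted p below 0.05 was found for 7 and DESeq2 called 3, beside 8.74% and 3.23% of all genes in this direction. Cd68, a macrophage marker, was closest, at 2.02, 2.17 and 3.76 CPM against 7.39, 7.63 and 5.24 CPM (1.35, edgeR adjusted p = 0.0506). Lymphocyte markers summed to at most 4.642 CPM in any library, and the B cell marker Ms4a1 was too low to be tested. B-ADR1, highest in myeloid RNA, was also highest in class I genes and Oas1a; the part of these cells in the interferon and antigen presentation values was not tested. Of the red cell list 2 genes were tested, and the haemoglobin genes are listed at 0 in each Day 5 library. Slc4a1, which is also expressed in the collecting duct, was at 7.85, 3.16 and 2.56 CPM against 0.627, 1.43 and 1.28 CPM and Alas2 below 1 CPM throughout.

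Targets of p53, which responds to the DNA damage of anthracyclines, were positive in 20 of 24 genes (median log2FC 0.51; 0.38 without A-ADR1; -0.06 untreated), 12 with an unadjusted p below 0.05. None was called in edgeR and 4 were called higher by DESeq2, beside 8.74% and 3.23% of all genes. Plk2 was at 92.4, 91.0 and 136 CPM against 177, 288 and 237 CPM (1.14, edgeR adjusted p = 0.0531), and Cdkn1a, the cell cycle inhibitor p21, at 293, 277 and 552 CPM against 629, 959.9 and 587 CPM (0.95, adjusted p = 0.121). A-ADR3 came close to the ByJcl libraries in both. Cell cycle genes were positive in 17 of 21 (median 0.36) at low levels. Cd44, a hyaluronan receptor raised in activated parietal cells, was called higher (10.1, 10.9 and 16 CPM against 24.4, 29.6 and 21.6 CPM, log2FC 1.03, adjusted p = 0.0489) but not without A-ADR1 (0.118), while 5 of 10 parietal markers were positive and 5 negative. Of 8 kidney injury genes 5 were positive (median 0.90); Cp (ceruloplasmin) stood at 1.15 and Clu (clusterin) at -0.90, neither called, and Havcr1 (KIM-1) overlapped at 0.398 to 2.35 CPM.

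Other stress and membrane genes were called higher without sharing a list. They were Anxa3 (log2FC 1.19), an annexin, Glipr2 (1.07), Nupr1 (0.80), a stress-induced chromatin protein, Litaf (0.96), Tmbim1 (0.80), Gramd4 (0.85) and Ckap4 (0.49), the smallest difference called. Zfp809, a zinc finger protein that silences retroviral DNA, was at 23.3, 22.6 and 21.9 CPM against 48.3, 67.0 and 47.5 CPM (1.26, SE 0.14, edgeR adjusted p = 0.00254; 0.0122 without A-ADR1). Hmga1b (1.61), a copy of Hmga1, and Erdr1 (1.85), which was not placed on GRCm39, have uncertain counts for the same reason as other near-copies. Lgals1 (galectin-1) was at 56.7, 27.8 and 45.5 CPM against 91.3, 121 and 80.5 CPM and was called only without A-ADR1 (1.41, adjusted p = 0.0436; with it, 0.0506).

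The oxidative phosphorylation list shows how far 1 library could set a result. All 19 nuclear oxidative phosphorylation genes had a negative log2FC with A-ADR1 (median -0.44), whereas without it 10 were negative and 9 positive (median -0.01). Cox6c was at 297 CPM in A-ADR1 and between 112 and 131 CPM in the other 5 libraries. Kap, a kidney androgen-regulated gene of the proximal tubule, was at 4679 CPM in A-ADR1, at 806 and 672 CPM in the other AJcl libraries and at 240.3, 358 and 550.4 CPM in ByJcl. Calb1, a distal calcium buffer, was at 260.1, 132 and 74.8 CPM against 1.93, 13.6 and 15.3 CPM (log2FC -3.92, edgeR adjusted p = 0.0713). The lists of TGF-beta genes (11 of 15 positive, median 0.30), YAP and TEAD targets (11 of 12, 0.27), chemokine and complement genes (12 of 16, 0.43) and fibroblast markers (2 of 6, -0.29) had no call in edgeR; 6, 5, 5 and 2 of their genes had an unadjusted p below 0.05, and DESeq2 called 2 in each, beside 5.71% of all genes. The DESeq2 calls were higher in ByJcl except 1 of those in fibroblast markers.

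Several list medians changed when A-ADR1 was left out or when a tubule list was added as a covariate. Whether tubule RNA set them was not tested. Without A-ADR1, over the same genes, the median shrank by over 1.5 times for both tubule lists and oxidative phosphorylation (values above). So did that of TGF-beta genes (0.30 to 0.18), YAP and TEAD targets (0.27 to 0.15), basement membrane (0.32 to 0.15), interstitial matrix (0.32 to 0.13) and mesangial markers (0.35 to 0.08). Of the others the median without A-ADR1 was 0.33 for chemokine and complement genes, -0.20 for fibroblast markers, 0.40 for cell cycle, 0.12 for endothelium, 0.23 for smooth muscle, 0.62 for endothelial activation, 0.42 for immediate early, 0.91 for kidney injury and -0.15 for parietal markers. With the proximal and the distal covariate in turn the basement membrane median was 0.11 and -0.000164, and that of interstitial matrix was 0.09 and -0.04, with 11 of 23 genes positive under the latter. Antigen presentation was at 0.60 and 0.48, cell cycle at 0.20 and 0.16, interferon at 0.63 and 0.52, and mesangial markers at 0.11 and 0.01. The actin and tropomyosin list (0.59 and 0.61), matrix turnover (0.70 and 0.59), integrins and focal adhesion (0.31 and 0.29) and p53 targets (0.47 and 0.56) changed less, and the podocyte list was more negative with both (-0.65 and -0.78). Parietal markers went from -0.04 to 0.31 and 0.60, and oxidative phosphorylation to -0.06 and 0.10. With A-ADR1 and B-ADR1 both left out, the medians were 0.03 for basement membrane, -0.04 for interstitial matrix, 0.545 for antigen presentation, 0.13 for cell cycle and 0.75 for actin and tropomyosin.

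**Figure D5:**
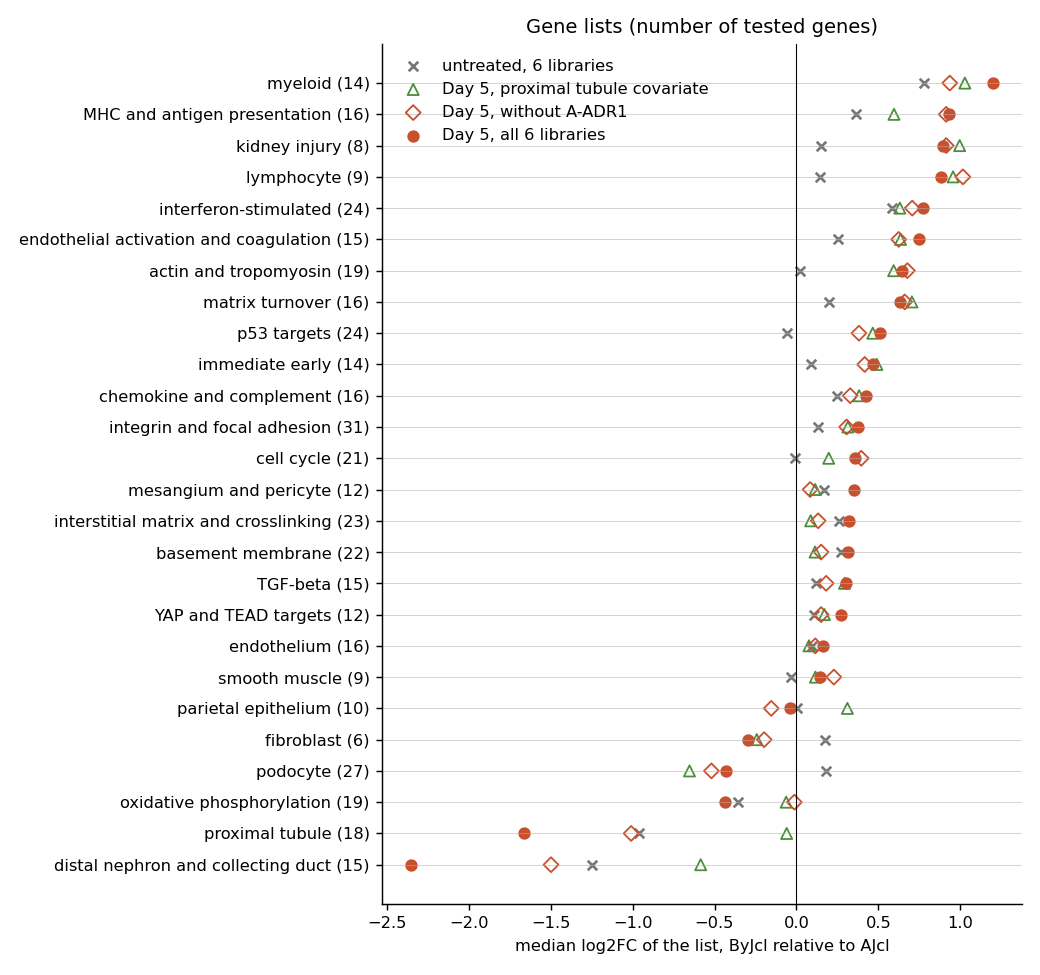
Median log2FC (ByJcl relative to AJcl) of each gene list with at least 6 tested genes, the number in parentheses: filled circles for all 6 Day 5 libraries, open diamonds without A-ADR1, triangles with the proximal tubule list as a covariate and crosses for the untreated libraries. The actin and tropomyosin list stays at 0.64 and 0.68 with and without A-ADR1 beside 0.02 untreated, and the oxidative phosphorylation list goes from -0.44 to -0.01.

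The strength of the calls differed widely. Over 20 other settings (libraries left out, other filters, scalings, tools and covariates), 6 genes were called in each: Arl2bp, Galk2, H2-Q6, Otud3, Ppp1r3a and Ubtd1, all of them also called in untreated mice. Ptgir and Zfp970 were called in 19, Oas1a, Oas1b and Zfp809 in 18, Col5a3 in 17, and Loxl1 and Serpina1b in 16.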

How the data were processed

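RNA of isolated glomeruli was sequenced as strand-specific poly(A) libraries. Per the labels, the authors used Trimmomatic for trimming and STAR for alignment (GRCm39), and the deposited values are raw counts per gene made by featureCounts; annotation, strand setting and pair counting are not given in the sources used here. Counts were fitted with edgeR 4.0.16 (R 4.3.3): filterByExpr, TMM and a quasi-likelihood model of the 4 groups over 12 libraries, and again over 11 without A-ADR1. The Day 5 contrast, the untreated contrast and their difference (interaction) were tested two-sided, with Benjamini-Hochberg adjustment over all tested genes. The script was tested on simulated counts. Each Day 5 library held 43835070 to 47513846 counts; limits drawn from 3 counts cover counting error only.

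The comparison and the gene lists were chosen with earlier results of these data known. Genes were named by a rule: per direction the 10 calls with the smallest adjusted p, the 10 smallest among those not called untreated, 3 per direction called only with or only without A-ADR1, 11 genes of interest, each call in a list, and the 2 smallest p of lists without a call. It named 84 genes, 41 of them calls. The 31 other calls, and the other genes named beside them that were not called, were chosen after their values were seen. Levels are not scaled for gene length, so they are compared between libraries and not between genes. Alternatives covered left-out libraries, DESeq2 1.42.0, other scalings and filters, a replicate block, tubule covariates and limma 3.58.1 voom weights. Results for some genes that the rule names are not reported here.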

Additional observations from a re-analysis of the deposited data

How the results depend on the processing

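The number of calls depended strongly on the setting, while all 72 genes kept their direction wherever they were tested. Leaving out 1 library gave 15 to 793 calls, with 12 to 506 higher and 3 to 287 lower in ByJcl: 28 without A-ADR1, 15 without A-ADR2, 793 without A-ADR3, 45 without B-ADR1, 18 without B-ADR2 and 27 without B-ADR3. A fit on the 6 Day 5 libraries alone called 10 (7 higher, 3 lower), and 6 without A-ADR1. DESeq2 called 911 (516 higher, 395 lower), so that 56.6% were higher beside 70.8% in edgeR, and 535 without A-ADR1 (348 higher, 187 lower). Calls without the low-count filter had 34 lower genes among 94. The proximal tubule covariate left 24 calls (19 higher, 5 lower). Chosen after seeing the data, the distal nephron covariate left 16 (12 higher, 4 lower), voom with sample weights gave 235 (184 higher, 51 lower), and leaving out both A-ADR1 and B-ADR1 gave 33 (25 higher, 8 lower). The causes were not tested. Other scalings, a filter at 1 CPM and halved counts stayed within 1.5 times.

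Replicate numbers did not pair the libraries: deviations of same-numbered Day 5 libraries correlated at -0.188, -0.0403 and -0.306. With the replicate block 14 genes were called (9 higher, 5 lower).

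Among the named genes 1307 results kept their side of the threshold, 289 lost a call, 70 gained one and 9 turned direction. The last were uncalled in each case: with the distal covariate Kap (0.40), Slc4a1 (0.021), Alas2 (0.11) and Sdha (0.040), and Alas2 also without A-ADR2 (0.33), A-ADR3 (0.11), B-ADR1 (0.37) or B-ADR2 (0.0014) and with the proximal covariate (0.092), its leave-one-out values reaching from -0.74 to 0.37.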
